A study of Arabidopsis thaliana with 8 samples.

Results

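Tau-class glutathione transferases of Arabidopsis thaliana were examined through 9 genes, GSTU16, GSTU18, GSTU20, GSTU22, GSTU23, GSTU25, GSTU26, GSTU27 and GSTU28. They were chosen by name as tau-class genes, each read through a probe set that is paired with that gene alone, out of 13356 genes with such a probe set on the array. The RefSeq gene table lists 28 tau-class genes, of which 19 stood outside the selection, among them GSTU15 and GSTU21, which also had such a probe set. RNA of 7-day-old seedlings was hybridised to Affymetrix arrays, from wild type (Col-0) and from til1-1, a mutant in TIL, which encodes a temperature-induced lipocalin. The seedlings were kept at 22 °C as controls or harvested directly after heat shock at 37 °C, for a time that no source used here states. Each of the 4 combinations of genotype and temperature had 2 biological replicates, each a pool of about 100 plants, and with so few arrays all values below have limited precision.

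Glutathione transferases of the tau class are soluble enzymes found mainly in plants. They join the tripeptide glutathione to reactive compounds such as herbicides and products of lipid oxidation, and the conjugates are then moved into the vacuole by transporters of the ABCC family. Many genes of the class lie in tandem clusters, and many are known to be raised by chemical and oxidative stress.

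The heated samples did not show a joint rise of these genes. Heat shock lowered GSTU27 in both genotypes, by 1.34-fold in wild type and 1.40-fold in the samples labelled til1-1. In the latter it also lowered GSTU28 by 1.96-fold and GSTU22 by 1.74-fold, and it raised GSTU18 by 1.39-fold. GSTU22 passed the test in wild type too, with a smaller fall that depended on the settings. GSTU16, GSTU20, GSTU23, GSTU25 and GSTU26 did not pass in either genotype, and no member passed between genotypes. As described below, the falls of GSTU22 and GSTU28 in the samples labelled til1-1 held under 4 scalings of the arrays, whereas the fall of GSTU27 and the rise of GSTU18 each failed to pass under 1 of them.

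Of the 9 genes, 8 lie on chromosome 1 and GSTU27 lies on chromosome 3 in the TAIR10.1 assembly. In the order of protein-coding genes of that assembly, GSTU22 and GSTU23 are neighbours, and GSTU20 is separated from GSTU22 by GSTU21. GSTU25 and GSTU26 are neighbours as well, with GSTU24 on the other side of GSTU25. GSTU18 lies beside GSTU17. Each of the 9 genes had 1 such probe set, and all 9 carried the plain "at" suffix that Affymetrix gives to probe sets designed for a single transcript. Whether transcripts of close relatives add to these signals was not tested.

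The levels are deposited intensities in arbitrary units on a linear scale. Because different probe sets respond differently to the same amount of RNA, levels are compared between samples and never between genes. Array medians were 197.4 to 203.85 in the controls and 154.75 to 160.15 after heat shock, and over all 17059 tested probe sets the median log2 difference by heat shock was -0.18 in wild type and -0.19 in the samples labelled til1-1. The probe set of TIL read 3132.3 to 3795.1 in wild type and 3047.8 to 3167.6 in the samples labelled til1-1 at 22 °C, which overlap. At 37 °C it read 20289.7 to 21245.7 and 5341.8 to 5803.7, so that the label was borne out at 37 °C and not at 22 °C, and the mutant samples are named by their label for that reason. Where the til1-1 lesion lies relative to these probes was not stated in any source used here.

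**Figure D1:**
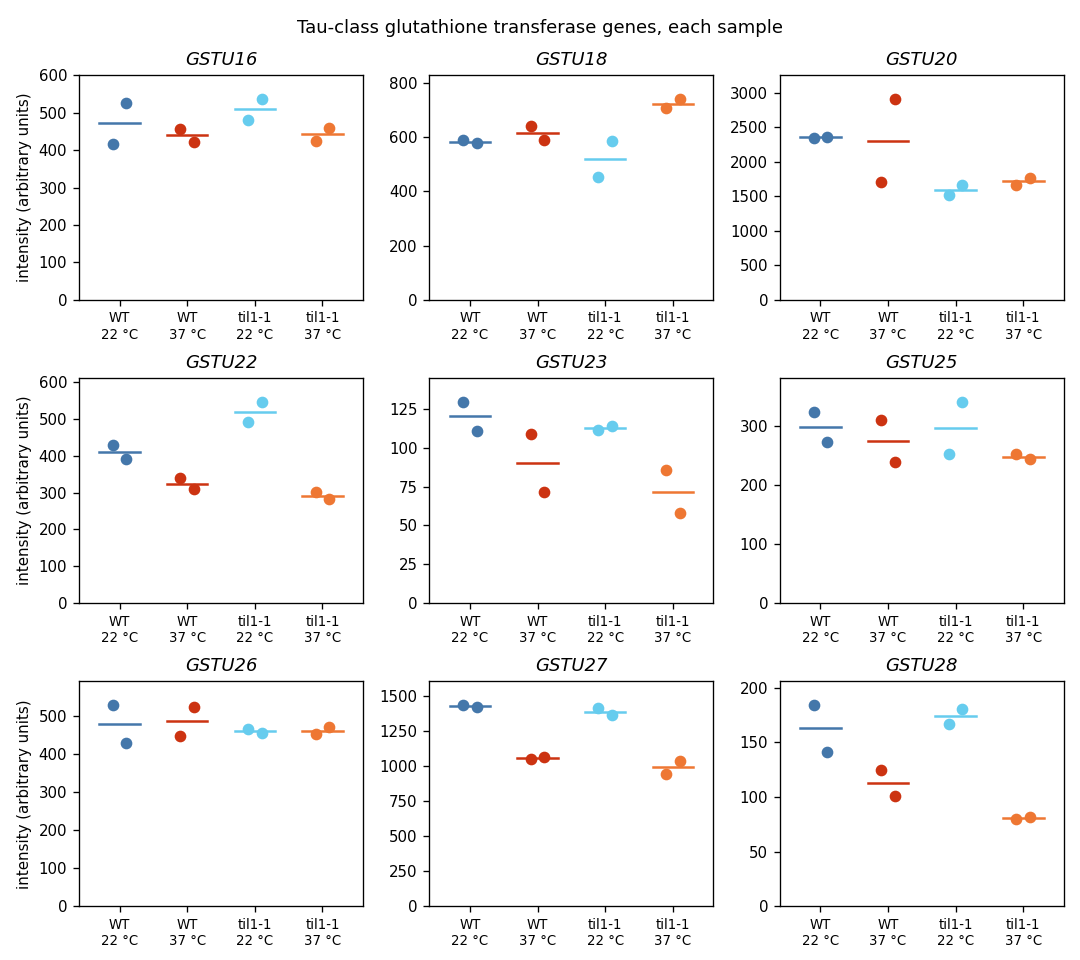
Intensity (linear, arbitrary units, axes from 0) of the 9 genes in each of the 8 samples, with 2 points per group and a line at the group mean; til1-1 stands for samples with that label. GSTU22, GSTU23, GSTU27 and GSTU28 are lower in the heated samples of each genotype than in its controls, although GSTU23 passed in neither. Of all tested probe sets, 65.1% had a negative log2 difference by heat shock in wild type and 65.3% with the til1-1 label. The wild-type 37 °C samples of GSTU20 lie at 1704.6 and 2911.3.

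GSTU27 (AT3G43800) was the member whose replicates lay closest together, with a pooled SD of 0.05 on the log2 scale against a median of 0.14 over all tested probe sets. It read 1433.7 and 1421.6 in wild type at 22 °C and 1050.2 and 1068.2 at 37 °C. It read 1411.2 and 1364.5 at 22 °C and 942.2 and 1038.3 at 37 °C in the samples labelled til1-1. All 4 heated samples lay below all 4 controls. The log2 fold change was -0.43 ± 0.09 (standard error) in wild type and -0.48 ± 0.09 in the samples labelled til1-1, with limma adjusted p-values of 0.00174 and 0.000734.

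GSTU28 (AT1G53680) read 184 and 141.6 in wild type at 22 °C and 124.8 and 100.8 at 37 °C. With the til1-1 label it read 167.2 and 180.6 at 22 °C and 80.2 and 81.6 at 37 °C. The heated samples lay below their controls in both genotypes, with a narrower gap in wild type. The log2 fold change with that label was -0.97 ± 0.20, with a limma adjusted p of 0.00165. GSTU28 was left untested when the lowest 50% of probe sets were dropped. In wild type it was at -0.47 ± 0.20, with a limma adjusted p of 0.0706, and thus did not pass. Without an intensity trend in the fit, the wild-type value passed at a limma adjusted p of 0.0458.

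GSTU22 (AT1G78340) read 428.2 and 390.1 in wild type at 22 °C and 339.3 and 309.5 at 37 °C. Samples labelled til1-1 read 490.7 and 545.5 at 22 °C and 300.1 and 282.8 at 37 °C. The highest 2 values of this gene were the controls labelled til1-1, and the lowest 2 were the heated samples of the same label. The log2 fold change in the samples labelled til1-1 was -0.80 ± 0.12, with a limma adjusted p of 0.000215. In wild type it was -0.32 ± 0.12, with a limma adjusted p of 0.0484, just under the threshold of 0.05. That call was lost when either wild-type control, either heated wild-type sample or either control labelled til1-1 was left out, with log2 values of -0.26 to -0.39 and limma adjusted p-values of 0.0579 to 0.264.

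GSTU18 (AT1G10360) was the single member that rose. In the samples labelled til1-1 it read 453.3 and 585.7 at 22 °C and 706 and 740.3 at 37 °C, which do not overlap. The log2 fold change was 0.48 ± 0.12, with a limma adjusted p of 0.00802. Without the first control labelled til1-1, the lower of the pair, it was 0.30 with a limma adjusted p of 0.103. In wild type GSTU18 read 587.3 and 576.8 at 22 °C and 640.7 and 587.5 at 37 °C, where the nearest values of the groups nearly met. The wild-type log2 fold change of 0.07 ± 0.12 did not pass (limma adjusted p 0.661).

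GSTU23 (AT1G78320), the neighbour of GSTU22, was dim and scattered. It read 129.4 and 110.9 in wild type at 22 °C and 109 and 71.7 at 37 °C. Samples labelled til1-1 read 111.7 and 114.3 at 22 °C and 85.4 and 57.9 at 37 °C. The groups did not overlap within either genotype, yet the pooled SD of 0.25 on the log2 scale was above the median of 0.14 over all tested probe sets. Log2 fold changes of -0.38 ± 0.25 in wild type and -0.58 ± 0.25 in the samples labelled til1-1 did not pass (limma adjusted p 0.243 and 0.0776). Without the first heated sample labelled til1-1, the latter was -0.80 with a limma adjusted p of 0.0321.

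GSTU20 (AT1G78370) encodes a protein that is known to bind the jasmonate-conjugating enzyme FIN219 (JAR1) in far-red light signalling. It read 2341.6 and 2366.4 in wild type at 22 °C, and 1704.6 and 2911.3 at 37 °C. The heated wild-type replicates lay on either side of the controls and differed 1.71-fold from each other. In the samples labelled til1-1 it read 1521 and 1657 at 22 °C and 1665.2 and 1767.7 at 37 °C, which were close together. Log2 fold changes by heat shock were -0.08 ± 0.18 in wild type and 0.11 ± 0.18 in the samples labelled til1-1, and neither passed. The wild-type value rested on which heated sample was kept: it was 0.30 without the first (limma adjusted p 0.0288) and -0.46 without the second (limma adjusted p 0.00355).

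The remaining 3 members did not pass in any comparison. GSTU25 (AT1G17180), whose enzyme is known to act on the explosive trinitrotoluene, ranged from 239.1 to 339.9 over the 8 samples. Its heat responses were -0.12 ± 0.17 and -0.23 ± 0.17 on the log2 scale in wild type and in the samples labelled til1-1. GSTU26 (AT1G17190), known to be inducible by chloroacetanilide herbicides, ranged from 429.9 to 527.6. Its heat responses were 0.02 and 0.00 on the log2 scale, with 95% confidence intervals of -0.26 to 0.30 and -0.27 to 0.28. GSTU16 (AT1G59700) ranged from 416.4 to 536.8, and its heat responses were -0.09 ± 0.13 and -0.20 ± 0.13. The 95% intervals of GSTU16 were -0.37 to 0.20 in wild type and -0.48 to 0.09 with the til1-1 label, and those of GSTU25 were -0.49 to 0.25 and -0.60 to 0.15.

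**Figure D2:**
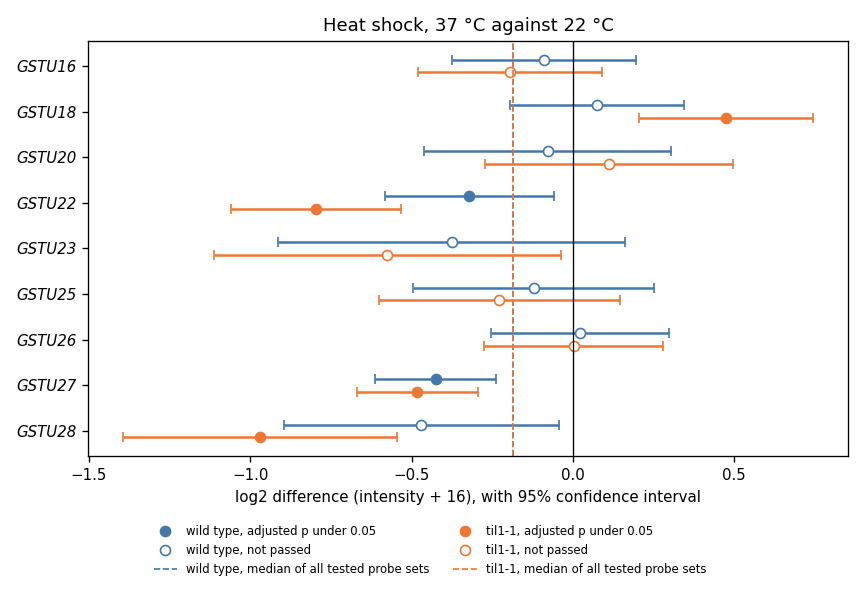
Log2 difference of each gene by heat shock (37 °C minus 22 °C, intensity + 16) with its 95% confidence interval from limma, in wild type (blue) and in the samples labelled til1-1 (orange), 2 samples per group. Filled points passed an adjusted p of 0.05 and open points did not; the dashed lines, which nearly coincide, are the medians of all tested probe sets at -0.18 and -0.19.

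Counted over the family, all 9 genes passed the filter on dim probe sets and were tested. In wild type 2 of 9 fell and none rose, where 31.3% of all tested probe sets were called lower and 12.4% higher. The median log2 fold change of the members was -0.12, against -0.18 for all tested probe sets. In the samples labelled til1-1 3 of 9 fell and 1 rose, where 31.6% of all tested probe sets were called lower and 12.7% higher, and the member median was -0.23 against -0.19. The shares of members that fell or rose were thus near the background in both genotypes, and the count is no result about the family. The heat comparisons share no arrays with each other, although they share 1 estimate of the spread.

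The direction of small changes depended on how the arrays were scaled, since the deposited scaling equalises a trimmed mean while the medians differ between temperatures. With array medians set equal, the median over the tested probe sets shifted to 0.14 in wild type and 0.13 in the samples labelled til1-1, and with scaling to spiked controls it moved to -0.61 and -0.63. With medians set equal the 2 calls in wild type were rises of GSTU18 and GSTU26, against 2 falls as deposited. In that setting 5189 of the 17059 tested probe sets were called higher and 2476 lower in wild type. With spiked controls all 9 members were called lower in wild type. So were 11121 of the 17059 tested probe sets, with 803 called higher. In the samples labelled til1-1 the 4 calls with medians set equal were rises of GSTU18 and GSTU20 and falls of GSTU22 and GSTU28. GSTU20 was at 0.45 there (limma adjusted p 0.0469). Of the 17059 tested probe sets, 5035 were called higher and 2541 lower in that comparison and setting. Over all probe sets called in wild type, 28.4% were higher as deposited, 67.7% with medians set equal, 40.6% after quantile normalization and 6.73% with spiked controls. In the samples labelled til1-1 these shares were 28.7%, 66.5%, 40.4% and 6.62%.

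Some members kept their sign and their call under all 4 scalings. With the til1-1 label, GSTU28 ranged from -1.39 to -0.67 and GSTU22 from -1.25 to -0.47 on the log2 scale, and both were called lower in all 4. GSTU27 was negative in all 4 in both genotypes and was called in 3, with values of -0.08 in wild type and -0.14 in the samples labelled til1-1 that did not pass when medians were set equal. GSTU18 was positive in all 4 in the samples labelled til1-1 and was called in 3, with 0.02 (limma adjusted p 0.932) under spiked controls. GSTU22 in wild type went to 0.02 with medians set equal and to -0.08 after quantile normalization, and passed in neither.

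Places relative to the overall median shifted less than the values themselves. Setting medians equal or scaling to spiked controls multiplies whole arrays, so for these it follows largely from the construction, whereas quantile normalization can move genes against the median. With the til1-1 label, GSTU28 lay 0.65 to 0.80 below the median of all tested probe sets over the 4 scalings, GSTU22 0.53 to 0.62 below it, GSTU23 0.30 to 0.42 below it and GSTU27 0.28 to 0.40 below it. These 4 genes also lay below the median in wild type under all 4 scalings, GSTU22 by 0.03 to 0.15 and GSTU27 by 0.22 to 0.36. GSTU18 lay above it by 0.64 to 0.68 in the samples labelled til1-1 and by 0.23 to 0.28 in wild type. GSTU26 lay above it by 0.17 to 0.25 in the samples labelled til1-1 and by 0.18 to 0.25 in wild type. GSTU20 in wild type crossed the median, from 0.13 above it to -0.13 after quantile normalization. With the til1-1 label GSTU16 (-0.03 to 0.04) and GSTU25 (-0.05 to 0.10) lay on either side of it.

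**Figure D3:**
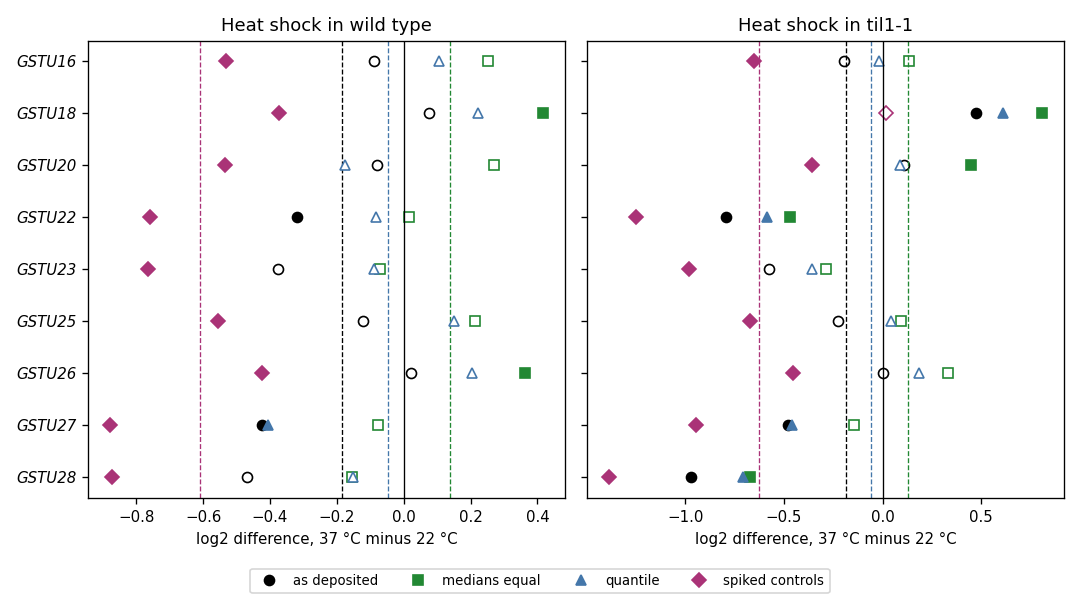
Log2 difference of each gene by heat shock under 4 scalings of the arrays (black circles as deposited, green squares with medians set equal, blue triangles quantile, purple diamonds spiked controls), in wild type on the left and the samples labelled til1-1 on the right. Filled symbols passed a limma adjusted p of 0.05, and the dashed lines are the medians of all tested probe sets; GSTU28 and GSTU22 are filled under all 4 scalings on the right.

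Levels of several tissue markers differed between the same samples. The root-enriched genes EXPA7, EXPA18 and PYK10, the 3 measured of 9 listed, summed to 17143 to 18836.4 intensity units in the wild-type controls and 10642.7 to 11600.8 after heat shock. With the til1-1 label they summed to 16422.6 to 16718.9 and 8980.4 to 9152.7, and all 3 fell in both genotypes under all 4 scalings. PYK10 made up most of these sums: in the wild-type controls it read 16406.3 and 18183.1, where EXPA7 and EXPA18 read 282.2 to 378.4. The 4 measured of 10 listed green-tissue genes summed to 61280.5 to 66841.9 and 80442.4 to 83806.9 in wild type, and to 58383.5 to 62487.2 and 92439.1 to 95644.6 in the samples labelled til1-1, although all 4 had negative log2 values after quantile normalization in both genotypes and with spiked controls in wild type. FAMA, a guard-cell gene and the 1 measured of 4 listed for guard cells and epidermis, read 343.5 to 365.4 and 154.2 to 168.4 in wild type, and 354 to 459.9 and 211.7 to 244.7 with the til1-1 label. ICL, the isocitrate lyase of seed oil use and the 1 measured of 6 listed for seed remnants, read 123 to 137.3 and 166.5 to 181.2 in wild type, against 80.1 to 85.7 and 68.5 to 75.1 with the til1-1 label. ICL thus did not overlap between genotypes at either temperature, with log2 differences of -0.56 and -1.11 that did not pass (limma adjusted p 0.9999 and 0.103). No measured gene of these lists was at 0. Their part in the changes of the tau-class genes was not tested, and in these bulk samples fewer cells of a type and less RNA per cell cannot be told apart.

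The genotypes were next compared at each temperature, to ask what set the mutant label apart before and after heat shock. At 22 °C none of the 9 members passed limma's test, where 0.00586% of all tested probe sets were called higher and 0% lower. At an unadjusted p under 0.05, 2 of 9 stood out, where 3.85% of all tested probe sets did. One was GSTU20, whose values were given above: both samples labelled til1-1 lay below both wild-type samples, 1.48-fold lower, with a log2 difference of -0.56 ± 0.18, an unadjusted p of 0.00774 and a limma adjusted p of 0.9999. The other was GSTU22, higher in both samples labelled til1-1, with a log2 difference of 0.33 ± 0.12, an unadjusted p of 0.0186 and a limma adjusted p of 0.9999. The other members had log2 differences of -0.17 to 0.11.

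At 37 °C none of the 9 members passed, where 0.00586% of all tested probe sets were called higher and 0.00586% lower, and none had an unadjusted p under 0.05, where 13.4% of all tested probe sets did. GSTU28 was lower in both samples labelled til1-1 than in both wild-type samples, with a log2 difference of -0.40 ± 0.20 and a 95% confidence interval of -0.83 to 0.02. GSTU20 was at -0.37 ± 0.18, with an interval of -0.76 to 0.01. It passed at -0.76 (limma adjusted p 0.0284) without the first heated wild-type sample and was at 0.01 without the second. GSTU18 was higher in both samples labelled til1-1, at 0.23 ± 0.12, and did not pass (limma adjusted p 0.44).

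**Figure D4:**
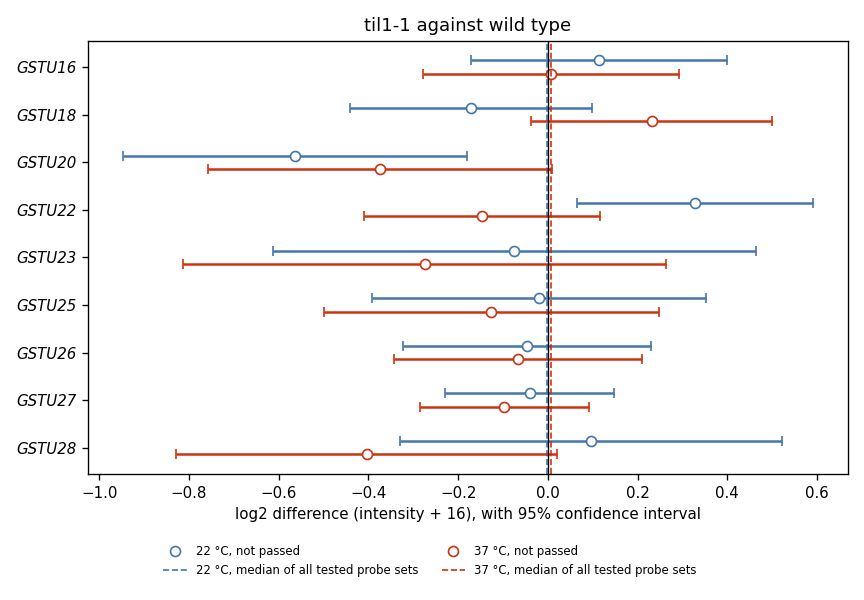
Log2 difference of each gene between the samples labelled til1-1 and wild type (intensity + 16) with its 95% confidence interval from limma, at 22 °C (blue) and 37 °C (red), 2 samples per group. No point passed an adjusted p of 0.05; the intervals of GSTU20 (-0.95 to -0.18) and GSTU22 (0.07 to 0.59) at 22 °C do not reach 0.

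The last comparison asked whether the heat responses themselves differed between genotypes, as the response labelled til1-1 minus that of wild type. None of the 9 members passed, where 0% of all tested probe sets were called higher and 0.00586% lower. At an unadjusted p under 0.05 there were 2 of 9 members, where 6.78% of all tested probe sets reached it. GSTU22 had a difference of -0.47 ± 0.17, an interval of -0.85 to -0.10 and a limma adjusted p of 0.667. GSTU18 had a difference of 0.40 ± 0.17, with an interval of 0.02 to 0.78 and a limma adjusted p of 0.723. The difference of GSTU28 was -0.50 ± 0.28 (limma adjusted p 0.790). For GSTU27 it was -0.06 ± 0.12, with an interval of -0.32 to 0.21. A heat call in the samples labelled til1-1 without one in wild type is therefore not shown to be a difference between genotypes for GSTU18 or GSTU28.

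Few other genes of the pathway could be followed by name. Of the 19 other tau-class genes, GSTU15 and GSTU21 were measured, and both were too dim to be tested, at 2.8 to 37.1 and 1.7 to 33.4 intensity units. Of 25 listed genes of other glutathione transferase classes, 3 were measured and 2 tested. GSTL3, a lambda-class enzyme, rose in the samples labelled til1-1 (log2 fold change 0.54 ± 0.10, limma adjusted p 0.000788) from 3555.7 and 3250.8 to 4949.1 and 4925.3, and was at 0.06 under scaling to spiked controls. In wild type it was at 0.03 ± 0.10 and its direction depended on the scaling. It was called higher with medians set equal (0.38, limma adjusted p 0.0110) and lower under spiked controls (-0.43, limma adjusted p 0.00884). After quantile normalization it was at -0.20 and did not pass. GSTF4, of the phi class, did not pass in either genotype as deposited (-0.09 and -0.24). Under spiked controls it was called lower in the samples labelled til1-1 (-0.66, limma adjusted p 0.0162).

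Of 21 listed genes of glutathione synthesis, reduction and turnover, 3 were tested. GR2 (listed as GR), the plastid and mitochondrial glutathione reductase, passed in wild type at 0.26 ± 0.09 (limma adjusted p 0.0303), and was nearly as high with the til1-1 label at 0.22 ± 0.09 (limma adjusted p 0.0528). The wild-type value was -0.20 under spiked controls, and it did not pass after quantile normalization (limma adjusted p 0.0557), without the intensity trend (0.0900), or without either wild-type control or the second heated wild-type sample (0.121 to 0.134). The value with the til1-1 label passed with medians set equal (0.56, limma adjusted p 0.000366) and with the lowest 50% of probe sets dropped (limma adjusted p 0.0456). It also passed without either heated wild-type sample (0.22) or the first control of that label (0.32). SIR, the sulfite reductase that supplies sulfide for cysteine, fell by 0.29 in wild type and by 0.22 in the samples labelled til1-1 on the log2 scale, values of 0.06 and 0.12 with medians set equal. The wild-type call of SIR was lost without the second wild-type control (-0.25). That with the til1-1 label was lost when any one of the 4 controls or the second heated sample of that label was left out (-0.17 to -0.24). It was also lost without the intensity trend (limma adjusted p 0.107) and in a fit on the groups of the comparison alone (0.0623). GR1, the cytosolic reductase, did not pass as deposited (0.16 and 0.22). With medians set equal it passed in both genotypes, at 0.51 and 0.56 (limma adjusted p 0.00117 and 0.000617). It did not pass after quantile normalization (0.18 and 0.26) or under spiked controls (-0.29 and -0.25). Leaving out the second heated sample labelled til1-1 took the GR1 value with that label from 0.22 to 0.32. None of the 14 listed ABCC transporters had a probe set paired with 1 gene.

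Of 27 listed genes of the xenobiotic and oxylipin response, 5 were tested. AER, an alkenal reductase that acts on reactive carbonyls, fell in both genotypes (-0.52 ± 0.18 in wild type and -0.73 ± 0.18 in the samples labelled til1-1). It stayed negative under all 4 scalings, but its call was lost with medians set equal in both genotypes (limma adjusted p 0.448 and 0.0865) and after quantile normalization in wild type (limma adjusted p 0.0607). The wild-type call was also lost without a filter (limma adjusted p 0.0659) and without the intensity trend (0.116). Leaving out the second wild-type control or either heated wild-type sample ended it too (-0.37 to -0.62). Leaving out the second control or the first heated sample of the til1-1 label ended the other call (-0.42 and -0.58). The glycosyltransferase gene UGT73B1 fell as well (-0.38 and -0.27), values of -0.03 and 0.07 with medians set equal. Its call in wild type was also lost without the first wild-type control (-0.35). The call in the samples labelled til1-1 was lost after quantile normalization (limma adjusted p 0.0606) and without the intensity trend (0.0568). That call was lost as well without either control or the first heated sample of that label (-0.28 to -0.23). The aldehyde dehydrogenase gene ALDH7B4 passed in the samples labelled til1-1 (0.23, limma adjusted p 0.0327) and was nearly as high in wild type (0.20, limma adjusted p 0.0606). The value with the til1-1 label was -0.02 after quantile normalization and -0.24 under spiked controls. Its call was lost without a filter (limma adjusted p 0.0533), without the intensity trend (0.126) and in a fit on the groups of the comparison alone (0.0533). The call was also lost without either wild-type control (0.23), the first control labelled til1-1 (0.13) or either heated sample of that label (0.26 and 0.20). In wild type ALDH7B4 passed with medians set equal (0.55, limma adjusted p 0.000134). It also passed there with the replicate block (limma adjusted p 0.0490) and in a fit on the groups of the comparison alone (0.0476). The same held without either control labelled til1-1. UGT73B4 and UGT73B5 did not pass as deposited. Under spiked controls UGT73B5 was called lower in both genotypes (-0.47 and -0.82, limma adjusted p 0.0286 and 0.000341). UGT73B4 was called lower there in the samples labelled til1-1 (-0.86, limma adjusted p 0.00397). Without the first heated sample labelled til1-1, UGT73B5 was at -0.68 with that label, against -0.38 as deposited. No listed gene of these 3 groups passed between genotypes.

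The genes whose pattern was most like that of a member were sought for GSTU28, GSTU22 and GSTU23, whose group means spanned the widest ranges (0.97, 0.80 and 0.65 on the log2 scale). Likeness was the root mean square difference of log2 values over the 8 samples, after each probe set was centred on its own mean, among 9278 probe sets of nuclear genes. Nearest to GSTU28 were AT1G51830, AT5G41850 and AT2G25980, each at 0.10, and nearest to GSTU22 were AT1G69526, AT1G49840 and AT5G18900, at 0.08 to 0.09. Nearest to GSTU23 were AT1G19430, AT3G13440 and AT1G60990, at 0.09 to 0.10. The distances were close to or under the pooled replicate SDs of GSTU28 (0.16), GSTU22 (0.09) and GSTU23 (0.25), so the order among such genes is not resolved.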

How the data were processed

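The intensities were deposited by the authors as 1 linear value per probe set and array, for which the submitters' processing notes name GCOS (Affymetrix); its version, algorithm and settings were not stated. In the deposited values the mean without 2% of probe sets at each end was 500.04 to 500.05 on every array. The arrays held 22810 probe sets, of which 64 were controls, 13513 were paired with 1 gene by the platform annotation, 503 with several and 8730 were unlisted. Symbols were updated by gene ID from the RefSeq table of TAIR10.1, which matched 13436 of the 1-gene probe sets. The listed names GR1, GR2, FDH, PCS1 and GGT1 are shared with other genes and were matched by locus, and 2 listed names matched no single gene. Arrays have no read depth, and no detection call accompanied the values used here.

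Intensities were transformed to log2(intensity + 16), which understates changes of dim genes. Controls were left out, as was the dimmest 25% by mean log2 value. Testing used limma 3.58.1 (R 4.3.3) on all 8 samples together, with a mean for each of the 4 groups (residual degrees of freedom: 4, intensity trend, two-sided, Benjamini-Hochberg adjustment over 17059 probe sets, threshold 0.05). The script was also run on simulated data with independent noise and with changes planted in brighter probe sets only. That run does not bear on the calls of dim members such as GSTU23 and GSTU28. P-values and standard errors rest on the spread between pools of plants, which limma drew towards that of probe sets of like intensity (prior degrees of freedom 7.9). From its own replicates alone, a member's standard error for 2 against 2 samples equals its pooled SD. That SD was 0.28 for GSTU20, against a standard error of 0.18 used, and 0.05 for GSTU27, against 0.09. All 9 members were named. Other genes came from lists of pathway genes and tissue markers, with values for those that passed. The members and lists were chosen with earlier results of these data known. Alternatives were other constants, filters, scalings (array medians, quantile, 9 spiked bio and cre controls), the trend, a replicate block, groups of the comparison alone and each sample left out. The use of these alternatives for listed genes other than members was added after seeing the data.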

Additional observations from a re-analysis of the deposited data

Results flagged for a closer look

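The estimated genotype difference of GSTU22 had opposite signs at the 2 temperatures, but passed at neither. On the log2 scale it was 0.33 ± 0.12 at 22 °C, with a limma adjusted p of 0.9999. At 37 °C it was -0.15 ± 0.12, with a limma adjusted p of 0.634. Its confidence interval at 37 °C, -0.41 to 0.12, spanned both signs, so a turn of sign is not shown. GSTU18 (-0.17 and 0.23) and GSTU28 (0.10 and -0.40) also changed sign and passed at neither temperature. At 22 °C both samples labelled til1-1 (490.7 and 545.5) lay above both wild-type samples (428.2 and 390.1), and at 37 °C both (300.1 and 282.8) lay below both (339.3 and 309.5). The difference between the temperatures was tested as the difference of the heat responses and was -0.47 ± 0.17 on the log2 scale. Its limma adjusted p was 0.667 and its unadjusted p 0.0167, so it did not pass. Over 17 alternatives this difference ranged from -0.55 to -0.40, with limma adjusted p-values of 0.403 to 0.9998.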

How the results depend on the processing

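Up to 18 alternatives were run for each of 45 member values (9 genes in 5 comparisons), 791 in all, with GSTU23 and GSTU28 untested where the lowest 50% of probe sets were dropped. Of these, 755 stayed on their side of the threshold with no called sign turned, 15 lost their call, 15 gained one and 6 turned sign where one of the values was called; 44 others changed sign without a call in either. As deposited, 2 members were called by heat shock in wild type. That count was 1 without a filter, after quantile normalization, with the replicate block and in a fit on the groups of the comparison alone, and 9 with scaling to spiked controls. It was 1 to 2 with a sample left out. The 2 called were GSTU18 and GSTU26 with medians set equal, GSTU27 and GSTU28 without the trend, and GSTU20 and GSTU27 without either heated wild-type sample. In the samples labelled til1-1 the count was 4, went to 8 with spiked controls, stayed 4 with GSTU20 in place of GSTU27 with medians set equal, and was 3 to 5 with a sample left out and 3 with the lowest 50% of probe sets dropped. Between genotypes at 37 °C it was 0 to 1 with a sample left out. The members that turned sign were GSTU22 in wild type (0.017 with medians set equal), GSTU18 and GSTU26 in wild type (-0.37 and -0.42 with spiked controls), GSTU20 and GSTU26 in the samples labelled til1-1 (-0.36 and -0.46 with spiked controls), and GSTU20 in wild type (0.30 without the first heated sample). RCA, LHCB4.1, LHCB4.2 and PSAE-1 are the green-tissue genes. Of the listed genes, with medians set equal SIR was at 0.056 and 0.12 in wild type and the samples labelled til1-1, and UGT73B1 at 0.066 in the latter. With spiked controls in wild type, GSTL3 was at -0.43, GR2 at -0.20, RCA at -0.089, LHCB4.1 at -0.071 and PSAE-1 at -0.043, and in the samples labelled til1-1 ALDH7B4 was at -0.24 and LHCB4.2 at -0.018. After quantile normalization RCA, LHCB4.1, LHCB4.2 and PSAE-1 were at -0.23, -0.21, -0.30 and -0.16 in wild type and at -0.18, -0.15, -0.12 and -0.030 in the samples labelled til1-1, where ALDH7B4 was at -0.023. Setting medians equal and scaling to spiked controls multiply whole arrays by construction; for quantile normalization and the other changes the cause was not tested. Over all tested probe sets, heat calls went from 7461 to 11924 in wild type and from 7563 to 12182 in the samples labelled til1-1 with spiked controls. Genotype calls over all probe sets were 1 at 22 °C (0 to 3 over the alternatives), 2 at 37 °C (1 to 26) and 1 for the difference of responses (1 to 2). The replicate numbers are shared by the groups, but nothing in the labels says what they mark. Over 6 pairs of groups, differences between replicates 1 and 2 correlated at -0.04 to 0.14 across probe sets. With the number as a block, 1 member was called in wild type against 2 without it, and GSTU22 had a limma adjusted p of 0.0525; no other call on a member changed. With 2 arrays per group and no detection call, neither small differences nor the background under dim genes such as GSTU23 can be resolved.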
